A study of Rattus norvegicus with 12 samples.

Results

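The alpha subunits of heterotrimeric G proteins were followed on 12 one-colour Affymetrix arrays of rat aortic smooth muscle cells. The list held 9 genes (Gnai1, Gnai2, Gnai3, Gnao1, Gnaq, Gna11, Gna12, Gna13 and Gnas), and a probe set was counted where the array annotation gives exactly 1 gene symbol and that symbol is on the list. This gave 10 of the 31099 probe sets on the array, for 7 of the 9 genes (and of 14218 genes with such a probe set): 3 probe sets for Gnas, 2 for Gna12 and 1 each for Gnai1, Gnai2, Gnao1, Gnaq and Gna11. Gnai3 stood only on 2 probe sets that list Gnai1 and Gnai3 together, and no probe set was listed for Gna13, so neither gene has a level of its own here. All 10 probe sets were bright enough to be tested.

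The cells were primary cultures from newborn rats, starved of serum overnight. Cells stimulated with thrombin at 2 U/ml, with TRAP (thrombin receptor-activating peptide) at 25 µM, or with TRAP at 25 µM after 24 h of pertussis toxin (PTX) at 200 ng/ml were each set against unstimulated cells from their own experiment, with 2 arrays in each of the 6 groups and 120 min of stimulation. Nothing in the labels ties replicate arrays to separate cultures, so the p-values cover the spread among these arrays alone, which may be technical. The labels give no agent for the unstimulated arrays of the PTX experiment and do not say whether they had PTX, so an effect of PTX itself and of TRAP after PTX cannot be told apart. Primary cultures can hold other cells of the vessel wall, and on such arrays fewer cells of a type and less RNA per cell cannot be told apart.

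G protein alpha subunits bind GDP at rest, exchange it for GTP when a receptor is activated, and then part from the beta and gamma subunits. The Gi family (Gnai1, Gnai2, Gnai3, and Gnao1, which is abundant in neurons) is the target of PTX, which ADP-ribosylates the alpha subunit and uncouples it from receptors. Of these, Gnai1, Gnai2 and Gnai3 inhibit adenylyl cyclase. Gnaq and Gna11 activate phospholipase C beta, Gna12 and Gna13 form a class of their own, and Gnas stimulates adenylyl cyclase. Thrombin receptors are known to couple to the Gi, Gq and G12 classes. PTX modifies the protein, whereas these arrays measure the transcript.

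Signals are linear and scaled per array, and probe sets differ in brightness, so levels are compared between arrays and not between genes. Changes are given as differences of log2(signal + 16), with the standard error (SE) or the 95% confidence interval from 1 limma fit over all 12 arrays. A probe set is called where its p, adjusted by Benjamini-Hochberg over the 18625 probe sets tested, lies under 0.05. Replicate arrays correlated with r between 0.9826 and 0.9914, and arrays of the thrombin experiment with those of the TRAP experiments between 0.9131 and 0.9408. In Saa3 and in overall pattern, 2 stimulated arrays lay nearer to the other TRAP experiment than to their own. TRAP replicate 1 had a signal of 222.5 in the acute-phase gene Saa3, against 18.1 and 15.9 in its unstimulated cells. TRAP after PTX replicate 1 had 20.3, against 420.9 and 374.6 in its unstimulated cells. No alpha subunit probe set was called in the TRAP response, the TRAP after PTX response or their difference with these arrays in the fit, without both, or with the sets of arrays they form as a block.

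None of the 10 alpha subunit probe sets was called after thrombin, after TRAP or after PTX and TRAP. Over all tested probe sets 4.74% were called after thrombin, 3.9% after TRAP and 2.71% after PTX and TRAP, shares at which a count of 0 among 10 does not set the alpha subunits apart. In the mean of the 3 responses none was called either, where 13.2% of all tested probe sets were. At an unadjusted p under 0.05 the thrombin response held 1 alpha subunit probe set (18% of all), the TRAP response 2 (16.3% of all), the response after PTX and TRAP 1 (16.9% of all), and the mean response 0 (27.2% of all). The median change of the 10 was -0.087 after thrombin, -0.14 after TRAP and 0.050 after PTX and TRAP, beside -0.036, -0.035 and -0.038 over all tested probe sets. With 2 arrays per group the intervals were still wide: they ran from -0.27 to 0.15 for the brighter Gna12 probe set after thrombin and from -1.45 to -0.14 for the dim Gnas probe set 1390263_at after TRAP.

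**Figure D1:**
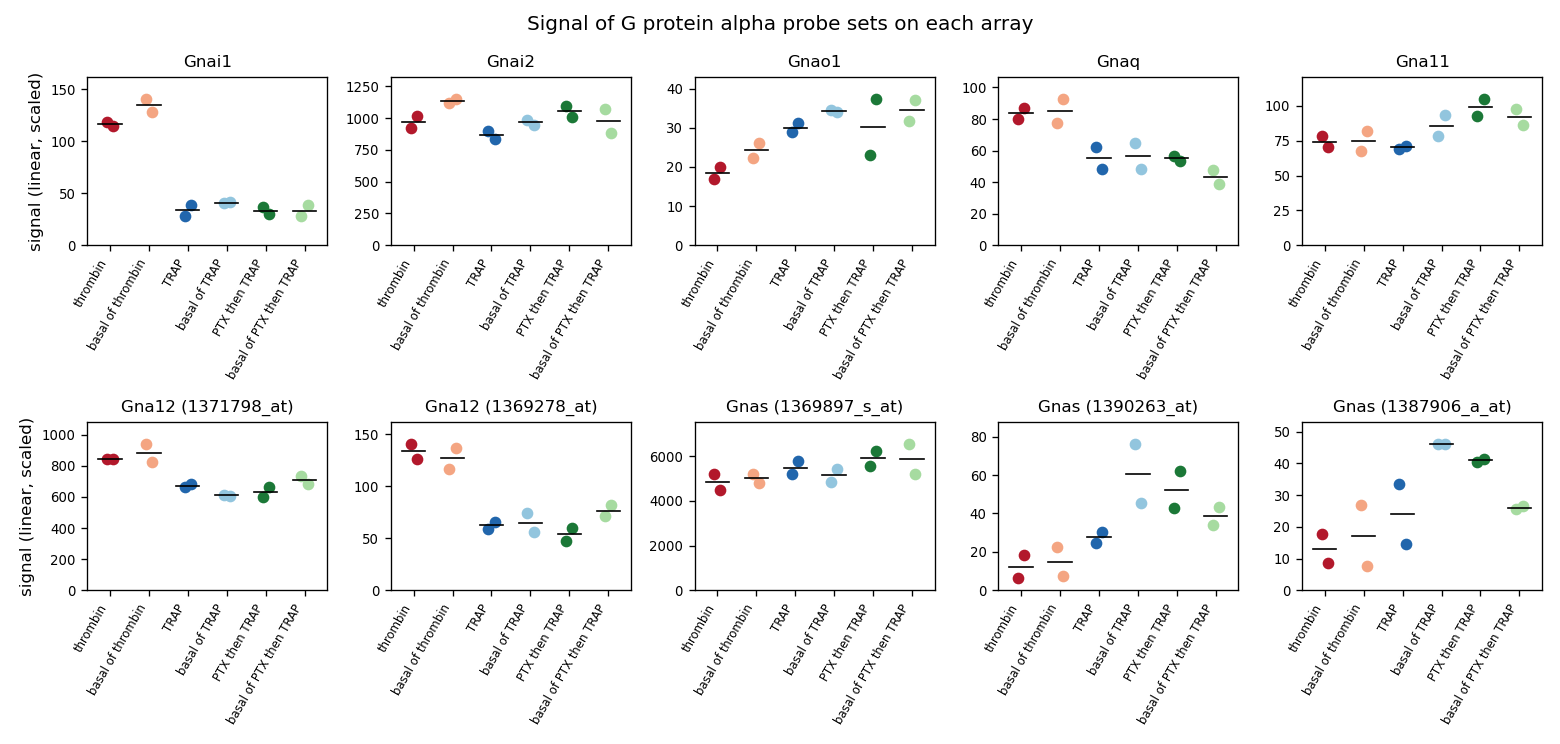
Linear signal of the 10 alpha subunit probe sets on each of the 12 arrays, with 1 panel per probe set, 1 point per array and a line at the mean of the 2 arrays of a group. Gnai1 is at 114.5 to 140.4 on the 4 arrays of the thrombin experiment and at 27.9 to 41.7 on the other 8, and within each experiment the stimulated and unstimulated points lie close together in most panels.

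Among the Gi family, Gnai2 (1367844_at) had the lowest p after thrombin. Its signals were 922.3 and 1014.6 in thrombin-treated cells, against 1122 and 1149.3 in their unstimulated cells. Both treated arrays lay below both unstimulated ones, with a log2 difference of -0.23 (95% interval -0.45 to -0.004), but this did not pass the test (adjusted p = 0.269, limma). In TRAP-treated cells the signals were 896.9 and 836.6, against 988.6 and 943.2 in their unstimulated cells, again without overlap and not called (-0.15 ± 0.10, SE). After PTX and TRAP they were 1095.1 and 1012.6, against 1071.3 and 884.6 in unstimulated cells of that experiment. There the groups overlapped, and the difference was 0.11 ± 0.10 (SE).

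Gnai1 (1387505_at), a close relative of Gnai2, had signals of 118.6 and 114.5 in thrombin-treated cells, against 140.4 and 128.4 in unstimulated cells. TRAP-treated cells had 28.3 and 39, against 40.2 and 41.7 in unstimulated cells. In both experiments the treated arrays lay below the unstimulated ones, with differences of -0.18 ± 0.19 and -0.21 ± 0.19 (SE) that were not called (adjusted p = 0.682 and 0.658, limma). After PTX and TRAP the signals were 36.3 and 29.6, against 27.9 and 38.8 in unstimulated cells, with overlap. Gnao1 (1368879_a_at) was dim on every array, between 16.9 and 37.3, near the signal of 22.68 that a probe set had to exceed on average to be tested. It had 16.9 and 20 in thrombin-treated cells against 22.3 and 26.2 in unstimulated cells, and 28.9 and 31.2 in TRAP-treated cells against 34.6 and 34. In cells given PTX and TRAP it had 23 and 37.3, against 31.7 and 37.2. Its differences lay between -0.22 and -0.13 with an SE of 0.22.

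Both probe sets that list Gnai1 and Gnai3 together lie outside the 10, because their signal cannot be assigned to 1 gene. The probe set 1368029_at had 2479.7 and 2489.3 in thrombin-treated cells, against 2430.7 and 2237.1 in unstimulated cells, and 1368030_at had 1071.3 and 990.1, against 1005.7 and 921.6. Neither was called in any response, with differences between -0.065 and 0.18.

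The Gq class showed no called response. Gnaq (1370091_at) had 80.3 and 86.8 in thrombin-treated cells, against 77.5 and 92.6 in unstimulated cells. TRAP-treated cells had 62.5 and 48.3, against 64.5 and 48.6 in unstimulated cells. The groups overlapped in both experiments, with differences of -0.018 ± 0.19 and -0.022 ± 0.19 (SE). After PTX and TRAP both arrays, at 56.7 and 53.7, lay above the unstimulated ones, at 47.8 and 38.6, by 0.27 ± 0.19 (SE, adjusted p = 0.492, limma). Gna11 (1387822_at), which shares the effector of Gnaq, had 78.1 and 70.2 in thrombin-treated cells against 67.5 and 82.1 in unstimulated cells. In TRAP-treated cells it had 69.1 and 71.5, against 78.3 and 93.4 in unstimulated cells, a difference of -0.24 ± 0.16 (SE) without overlap that was not called (adjusted p = 0.525, limma). PTX and TRAP gave 92.9 and 104.8, against 97.5 and 86.5 in unstimulated cells, with overlap.

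For Gna12, the brighter probe set (1371798_at) had 844.3 and 843.6 in thrombin-treated cells, against 939.4 and 822.2 in unstimulated cells. TRAP-treated cells had 661.3 and 684, against 611.8 and 606.9 in unstimulated cells, the only alpha subunit probe set with both TRAP arrays above both unstimulated ones (0.14 ± 0.10, SE, adjusted p = 0.535, limma). After PTX and TRAP the signals were 599.3 and 663.1, against 732.6 and 682.6 in unstimulated cells, below them by 0.16 on the log2 scale and not called. The dimmer probe set (1369278_at) had 47.4 and 60.1 after PTX and TRAP, against 71.4 and 81.8 in unstimulated cells, a difference of -0.41 (95% interval -0.78 to -0.041) that did not pass the test (adjusted p = 0.241, limma). With thrombin it had 140.7 and 126.6, against 117.2 and 137 in unstimulated cells, and with TRAP 58.8 and 66, against 73.9 and 56.3. In these 2 experiments its groups overlapped. Over the 12 arrays the Gna12 probe sets correlated with r = 0.893.

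The Gnas probe sets did not move together. The bright one (1369897_s_at) had 5203.2 and 4484.1 in thrombin-treated cells, against 5226.4 and 4805.6 in unstimulated cells. It had 5218.6 and 5770.6 in TRAP-treated cells, against 4870.4 and 5451.6, and 5582.4 and 6232.6 after PTX and TRAP, against 6548.2 and 5224.3. In all 3 experiments the groups overlapped, with differences between -0.053 and 0.091 and an SE of 0.12.

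The other Gnas probe sets were dim. In TRAP-treated cells 1390263_at had 24.8 and 30.2, against 76.1 and 45.4 in unstimulated cells, a difference of -0.79 ± 0.30 (SE, adjusted p = 0.197, limma). In the same cells 1387906_a_at had 33.5 and 14.5, against 46 and 46.1, a difference of -0.68 ± 0.30 (SE, adjusted p = 0.280, limma). Both were below their unstimulated arrays without overlap and neither was called. After PTX and TRAP 1390263_at had 42.7 and 61.9, against 34.2 and 43.6, with overlap and no call (0.31 ± 0.30, SE). There 1387906_a_at had 40.6 and 41.4, against 25.6 and 26.5, without overlap and also not called (0.44 ± 0.30, SE, adjusted p = 0.491, limma). In thrombin-treated cells they had 6.2 and 18.5 against 22.6 and 7.3, and 17.6 and 8.7 against 26.8 and 7.7, with overlap in both. These dim probe sets correlated with each other with r = 0.796 over the 12 arrays, and with the bright one with r = 0.377 and 0.402. Gnas is a complex gene with several promoters and transcripts, and the RefSeq table used here lists 3 starts for it. Which transcript each probe set reads is not given in the sources used here.

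Arrays of stimulated cells lay outside both unstimulated arrays for 3 of the 10 probe sets after thrombin, all below (47.4% of all tested probe sets lay outside, on either side). After TRAP this held for 7 of the 10, with 1 above and 6 below (48.6% of all), and after PTX and TRAP for 4, with 2 above and 2 below (45.2% of all).

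**Figure D2:**
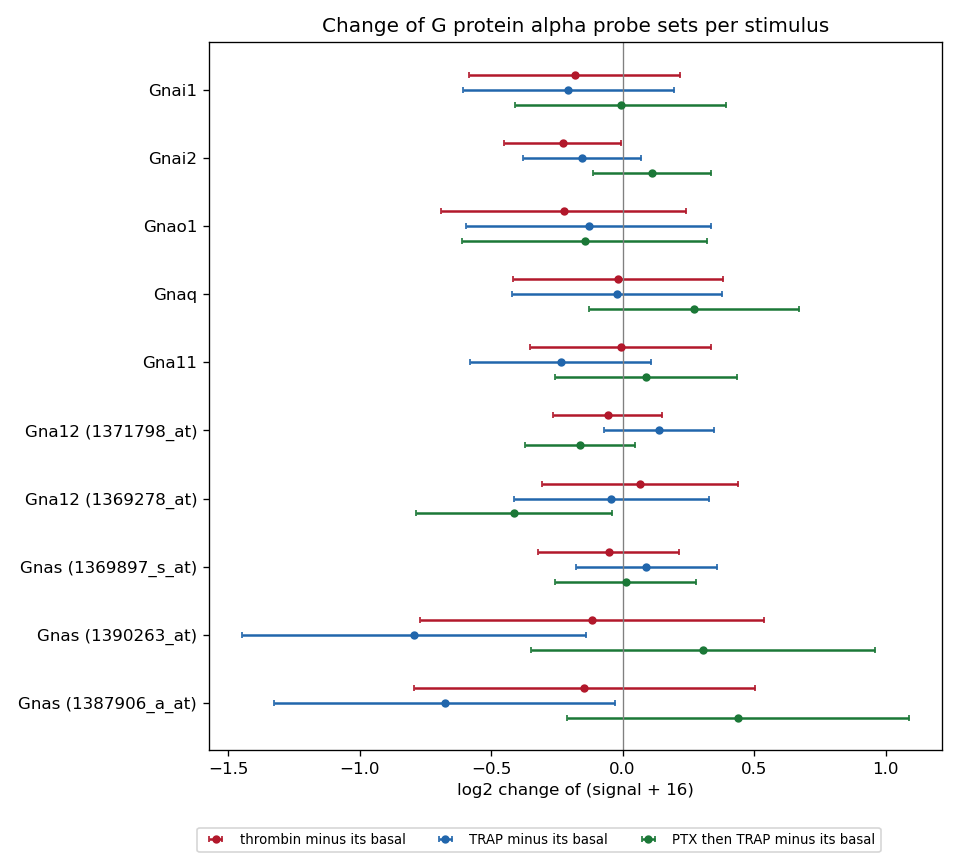
Change of each alpha subunit probe set after thrombin, TRAP, and PTX then TRAP, as the difference of log2(signal + 16) from the unstimulated cells of the same experiment, with 95% confidence intervals. Most intervals cover 0, the widest belong to the dim Gnas probe sets, and none of the changes passed the adjusted threshold.

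Whether the stimuli differed was tested on the differences of the responses themselves. The thrombin response minus the TRAP response was called for 0 of the 10 probe sets (0.532% of all tested), with 0 at an unadjusted p under 0.05 (10.1% of all), and the lowest adjusted p was 0.660 (limma). The intervals still allow differences of some size, from -0.39 to 0.24 for Gnai2 and from -0.54 to 0.59 for Gnai1.

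The response to TRAP after PTX minus the response to TRAP alone was called for 0 of the 10 (0.129% of all tested), and 3 had an unadjusted p under 0.05 (8.28% of all). These 3 were the dim Gnas probe sets, at 1.10 ± 0.43 for 1390263_at and 1.11 ± 0.43 for 1387906_a_at (SE), and the brighter Gna12 probe set at -0.30 ± 0.14 (SE), with adjusted p = 0.495, 0.479 and 0.592 (limma). Without TRAP replicate 1 and TRAP after PTX replicate 1, the Gnas values were 1.21 and 1.47 (adjusted p = 0.723 and 0.520, limma). Of the PTX targets, Gnai1 differed by 0.20 (95% interval -0.37 to 0.77), Gnai2 by 0.27 (-0.051 to 0.58) and Gnao1 by -0.016 (-0.68 to 0.64). None of these differences was detectable with 2 arrays per group.

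Calls among the alpha subunits were found between the unstimulated cells of the 3 experiments. An F test among the 3 unstimulated groups called 5 of the 10 alpha subunit probe sets, for Gnai1, Gnaq, Gna12 (both) and Gnas (1390263_at), against 42.2% of all tested probe sets, so this share is near that of the whole array. Counted by genes at their brightest probe set, the F test called 3 of 7. Tested as a pair, unstimulated cells of the thrombin experiment were higher than those of the TRAP experiment for 2 of the 7, Gnai1 and Gna12, and lower for 0. Over all tested probe sets this pair called 18.5% higher and 22.2% lower.

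For Gnai1, Gna12 and Gnaq, the 3 genes called at their brightest probe set, the 250 bases upstream of the RefSeq start are shown (GRCr8, plus strand, 5′ to 3′), as the sequence next to the transcripts that differed. They lie at chr4:17705811-17706060 for Gnai1, chr12:18919379-18919628 for Gna12 and chr1:222852203-222852452 for Gnaq. Capitals mark GGGCGG or its reverse complement CCGCCC, the core of the GC box that Sp1 binds, with overlapping matches joined.
Gnai1: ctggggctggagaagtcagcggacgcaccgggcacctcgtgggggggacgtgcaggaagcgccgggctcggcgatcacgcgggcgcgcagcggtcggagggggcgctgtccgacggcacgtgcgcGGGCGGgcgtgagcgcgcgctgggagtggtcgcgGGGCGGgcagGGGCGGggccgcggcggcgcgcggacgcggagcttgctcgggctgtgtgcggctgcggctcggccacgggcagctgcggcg
Gna12: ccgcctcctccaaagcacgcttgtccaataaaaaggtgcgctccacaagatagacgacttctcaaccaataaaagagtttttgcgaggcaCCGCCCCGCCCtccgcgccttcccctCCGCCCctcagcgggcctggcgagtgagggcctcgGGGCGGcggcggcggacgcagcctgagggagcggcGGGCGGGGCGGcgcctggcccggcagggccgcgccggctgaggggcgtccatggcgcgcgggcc
Gnaq: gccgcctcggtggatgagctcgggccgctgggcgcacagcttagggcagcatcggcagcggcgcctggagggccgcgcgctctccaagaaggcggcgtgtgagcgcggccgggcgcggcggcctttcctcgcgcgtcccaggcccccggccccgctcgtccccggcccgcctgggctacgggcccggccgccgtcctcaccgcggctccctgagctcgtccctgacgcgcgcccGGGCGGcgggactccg
The windows hold 3 GC boxes for Gnai1, 6 for Gna12 and 1 for Gnaq, and have a GC content between 72.0% for Gna12 and 80.4% for Gnai1, beside a median of 51.2% over 33469 promoter windows of the same length. A GC box stands in 30.5% of those windows. The other listed alpha subunit windows hold 2 for Gna11, 4 for Gna13, 4 for Gnao1, and 1, 0 and 3 for the 3 Gnas starts. Their GC content lies between 49.2% for 1 Gnas start and 83.6% for Gnao1. Neither GC boxes nor GC content thus set the 3 genes apart from the other alpha subunits. TGACGTCA, the full cyclic AMP response element searched on both strands, stands in 1.59% of all windows and, among the listed alpha subunit starts (9 starts of 7 genes, Gna13 among them), only in that of Gnao1. TATAAA, searched on both strands, stands in 12.9% of all windows and in 1 of the 3 Gnas windows, and in none of the other alpha subunit windows. These are matches of letters and not sites known to be bound. Gnai2 and Gnai3 were not matched in the table.

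Gnai1 had the largest log2 difference of the 10 between the thrombin and both other experiments. Its signals in unstimulated cells were 140.4 and 128.4 in the thrombin experiment, against 40.2 and 41.7 in the TRAP experiment and 27.9 and 38.8 in the PTX experiment. The first lay above both others without overlap, by 1.4 ± 0.19 (SE, log2, adjusted p = 5.39e-05, limma) and 1.62 ± 0.19 (SE), or 2.64-fold and 3.06-fold on this scale. The probe set 1368030_at, which lists Gnai1 and Gnai3, differed in the same direction, with 1005.7 and 921.6 against 521.4 and 590.6 in the TRAP experiment (0.78 ± 0.12, SE, adjusted p = 0.000209, limma). The other joint probe set, 1368029_at, had 2430.7 and 2237.1 against 2151.6 and 2414.7 and was not called.

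Gna12 was higher in unstimulated cells of the thrombin experiment on both probe sets. The brighter had 939.4 and 822.2, against 611.8 and 606.9 in the TRAP experiment, a difference of 0.52 ± 0.10 (SE, adjusted p = 0.000796, limma). The dimmer had 117.2 and 137, against 73.9 and 56.3, a difference of 0.82 ± 0.17 (SE, adjusted p = 0.00181, limma). Against the PTX experiment the differences were 0.31 and 0.63, and both were called.

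Gnaq had 77.5 and 92.6 in unstimulated cells of the thrombin experiment, against 64.5 and 48.6 in the TRAP experiment and 47.8 and 38.6 in the PTX experiment. The difference from the PTX experiment was called (0.77 ± 0.19, SE, adjusted p = 0.00475, limma), and that from the TRAP experiment was not (0.48 ± 0.19, SE, adjusted p = 0.0523). Without replicate 2 of the unstimulated thrombin experiment, Gnaq was no longer called in the F test (adjusted p = 0.0930, limma). The Gnas probe set 1390263_at went the other way, with 22.6 and 7.3 against 76.1 and 45.4 in the TRAP experiment (-1.33 ± 0.30, SE, adjusted p = 0.00332, limma), and it too was lost from the F test without that array (adjusted p = 0.0957). The bright Gnas probe set, Gnai2, Gnao1 and Gna11 were not called in the F test.

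Of the pairs of unstimulated groups, thrombin minus TRAP called 5 of the 10 probe sets (40.7% of all tested): those for Gnai1, both for Gna12, and the Gnas probe sets 1390263_at and 1387906_a_at. The last had 26.8 and 7.7, against 46 and 46.1 in the TRAP experiment (-0.96 ± 0.30, SE, adjusted p = 0.0207, limma), and did not pass the F test (adjusted p = 0.0514). The mean of 1387906_a_at in unstimulated cells of the thrombin experiment, 17.25, also lay under the 22.68 needed for testing. Thrombin minus PTX also called 5 (40.6% of all), with Gnaq in place of 1387906_a_at. PTX minus TRAP called 0 (0.043% of all), where the lowest adjusted p among the 10 was 0.401 (limma) and 1 had an unadjusted p under 0.05, the brighter Gna12 probe set at 0.21 ± 0.10 (SE).

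**Figure D3:**
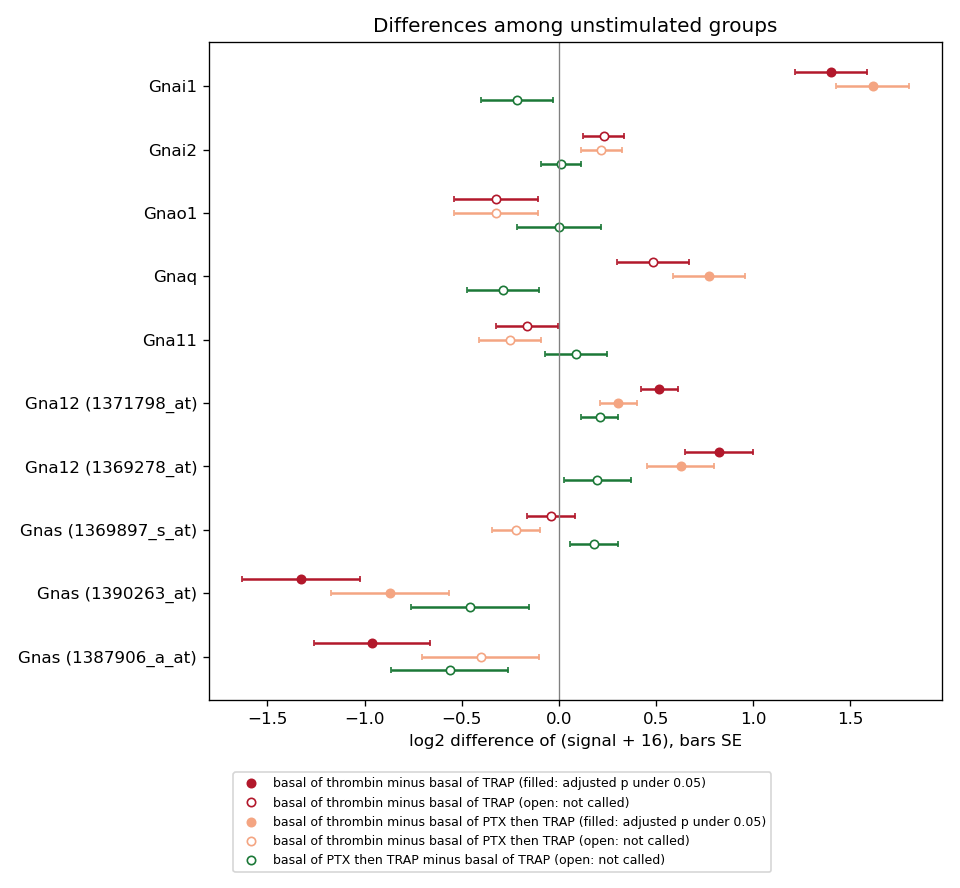
Differences among the 3 unstimulated groups for each alpha subunit probe set, in log2(signal + 16), with SE bars and filled points where the adjusted p of the pair lay under 0.05. Gnai1 and both Gna12 probe sets are higher in the thrombin experiment than in both others, the Gnas probe set 1390263_at is lower than in both, 1387906_a_at is lower than in the TRAP experiment, and no difference between the PTX and TRAP experiments is called. In unstimulated cells of the thrombin experiment these dim Gnas probe sets average 14.95 and 17.25, under the 22.68 needed for testing.

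The same probe sets were separate with the stimulated arrays included. All 4 arrays of the thrombin experiment lay above the other 8 for Gnai1 (114.5 to 140.4 against 27.9 to 41.7), Gnaq (77.5 to 92.6 against 38.6 to 64.5) and both Gna12 probe sets (822.2 to 939.4 against 599.3 to 732.6, and 117.2 to 140.7 against 47.4 to 81.8). They lay below the other 8 for the Gnas probe set 1390263_at (6.2 to 22.6 against 24.8 to 76.1), and the other 5 probe sets overlapped. For 1390263_at those 4 signals lay under the average of 22.68 needed for testing, so the probe set was tested through the other 8 arrays. Over all tested probe sets 15.8% lay above in this way and 18.1% below. The experiment and any other difference between these cultures cannot be told apart.

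Markers of the cells also differed between the experiments. In the pair test, where 22.2% of all tested probe sets were called lower and 18.5% higher, smooth muscle markers were lower in unstimulated cells of the thrombin experiment than of the TRAP experiment for 7 of 8 tested, with a summed signal over the listed markers of 9865.9 to 10372 against 15061 to 17544.5. Adventitial fibroblast markers were lower for 5 of 6 tested, with 6230.9 to 6526.7 against 9873.8 to 10580.8. The only tested endothelial marker, Tek, was higher (85.7 and 68.2 against 26.5 and 46.1). The sum over the 6 endothelial markers on the array was 80.1 to 119 against 46.7 to 69.3. Tek is part of that sum, and the rest were too dim to test. In unstimulated cells of the PTX experiment the sum was 81.2 to 112.7, but Tek was at 40.2 and 33.1, near its signals in the TRAP experiment. The rest of that sum comes from the markers too dim to test. The only tested leukocyte marker, Cd14, was also higher (578.4 and 503.7 against 302.4 and 326.2). The sum over 6 leukocyte markers, 530.5 to 628.7 against 334.2 to 364.6, is mostly Cd14, and the rest were too dim to test. Of 4 tested Schwann and neural markers 2 were higher (Mbp and Cnp) and 1 was lower (Stmn2), with a sum of 554.7 to 637.6 against 358.9 to 435.7. In unstimulated cells of the PTX experiment that sum was 522 to 566.9, made up differently from that of the thrombin experiment. Mbp was lower there (49.5 and 55.7 against 233.5 and 153.2 in the thrombin experiment), Cnp was alike (311.1 and 314.3 against 317.5 and 303.8), and Stmn2 was higher (106 and 110.2 against 21.8 and 32.8). The endothelial marker Pecam1 was at most 7.5 and the leukocyte marker Ptprc at most 12 on every array, no marker was at 0 on all arrays of a group, and no adipocyte marker was bright enough to test. The part of these differences in the alpha subunit levels was not tested.

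The genes whose pattern was most like that of the 3 genes were taken by Pearson correlation over the 12 arrays among 9905 genes. For Gnai1 they were Plaat3 (r = 0.9943), Cd24 (0.993) and Vch (0.9927). For Gnaq they were Sgce (0.9637), Acp1 (0.9443) and Kif3b (0.9433), and for Gna12 Seh1l (0.9812), Stmp1 (0.9756) and Epas1 (0.9739). These correlations share the split between experiments. Over the 8 arrays of the TRAP experiments alone they lay between 0.7806 for Vch and 0.932 for Seh1l. The genes were picked on all 12 arrays, these 8 among them, so these values are not independent of the choice.

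The wider pathway was read from lists of genes taken at their brightest probe set. Of 7 other alpha subunit genes 2 were bright enough to test, and neither was called. Of 17 beta and gamma subunit genes 12 were tested, of 22 effectors and exchange factors 15, of 17 chaperones and other regulators 13, and of 4 genes of the protease-activated receptor family 2. None of these genes was called after thrombin, where 4.74% of all tested probe sets were. Nor was any called in thrombin minus TRAP (0.532% of all). The same held for the response to TRAP after PTX minus that to TRAP alone (0.129% of all). In the mean response 2 of 12 beta and gamma subunits and 1 of 15 effectors were called (13.2% of all). There 1 of 13 regulators and 2 of 2 receptors were called too. Over all tested probe sets 3.9% were called after TRAP and 2.71% after PTX and TRAP.

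Among beta and gamma subunits, which anchor the alpha subunit and signal on their own, Gng11 fell after PTX and TRAP. Its signals were 118.1 and 118.5, against 180.8 and 206.8 in unstimulated cells (-0.64 ± 0.12, SE, adjusted p = 0.0114, limma). It had 137.1 and 150 in TRAP-treated cells, against 188.2 and 195.6, which did not pass (-0.38 ± 0.12, adjusted p = 0.103), and 301.8 and 327.6 in thrombin-treated cells, against 319.1 and 291.4. In the mean of the 3 responses Gng11 fell by 0.33 on the log2 scale (adjusted p = 0.00664, limma). The mean response was called in each of 12 fits with 1 array omitted. The call after PTX and TRAP was lost in 3 of them, those without either array of that treatment (adjusted p = 0.0735 and 0.0529) or without replicate 2 of its unstimulated cells (0.101). It was also lost without TRAP replicate 1 and TRAP after PTX replicate 1 together (-0.64, adjusted p = 0.0779). Gng2 rose in the mean response by 0.44 (adjusted p = 0.0467, limma), a call kept in 3 of the 12 fits (without replicate 2 of the unstimulated TRAP experiment, replicate 1 of the unstimulated PTX experiment or TRAP replicate 2) and lost without each other array.

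Of the regulators, Gpsm1 and Gpsm2 encode proteins that bind Gi alpha subunits in the GDP-bound state. Gpsm1 had 203.9 and 193.7 after PTX and TRAP, against 268.7 and 309.3 in unstimulated cells (-0.50 ± 0.12, SE, adjusted p = 0.0428, limma). In TRAP-treated cells it had 187.6 and 199.9, against 277.1 and 266.3, a similar fall that was not called (-0.46 ± 0.12, SE, adjusted p = 0.0521, limma). In thrombin-treated cells it had 235 and 268.1, against 271.9 and 239 (-0.021 ± 0.12, SE). Gpsm1 differed by -0.047 ± 0.17 (SE) between the TRAP responses with and without PTX, which was not called (adjusted p = 0.975, limma). It fell in the mean of the 3 responses by 0.33 on the log2 scale (adjusted p = 0.00711, limma), called in each fit with 1 array omitted. The call after PTX and TRAP was kept in 2 of those 12, the ones without either unstimulated array of the thrombin experiment, and was lost without each other array (adjusted p between 0.0502 and 0.235). Gpsm2 fell after TRAP, with 113.1 and 138.7 against 238 and 224.6 in unstimulated cells (-0.81 ± 0.18, SE, adjusted p = 0.0204, limma). That call was lost without TRAP replicate 1 (-0.68), without either of its unstimulated arrays (-0.77 and -0.85), and with the sets of arrays as a block (-0.61, adjusted p = 0.0538, limma). It was also lost without TRAP replicate 1 and TRAP after PTX replicate 1 together (-0.68).

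Among the effectors 1 gene passed in a response: Trio, a guanine nucleotide exchange factor, rose by 0.19 in the mean response (adjusted p = 0.0334, limma), kept in 3 of the 12 fits with 1 array omitted (without thrombin replicate 1, replicate 1 of its unstimulated cells or replicate 2 of the unstimulated PTX experiment) and lost without each other array. Tested as a pair, unstimulated cells of the thrombin experiment were lower than those of the TRAP experiment for 8 of the 15 effectors and higher for 0, where 22.2% of all tested probe sets were lower and 18.5% higher. They were the adenylyl cyclases Adcy3 (72.3 and 72.7 against 244.4 and 244.6) and Adcy4, and the phospholipases Plcb3 (48.1 and 63.1 against 229.3 and 264.9) and Plcb4. The others were Akap13, Trio, Rhoa and Rock2. The largest log2 difference of these was -1.88 for Plcb3. In the same pair the beta and gamma subunits Gnb1, Gnb2, Gng2 and Gng11 were higher and Gnb4 and Gng8 lower, and the regulators Gpsm2, Grk6 and Lypla1 were lower. Of the tested receptors, F2rl1 was higher (193.8 and 135.7 against 59.2 and 57.7) and F2r was not called.

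**Figure D4:**
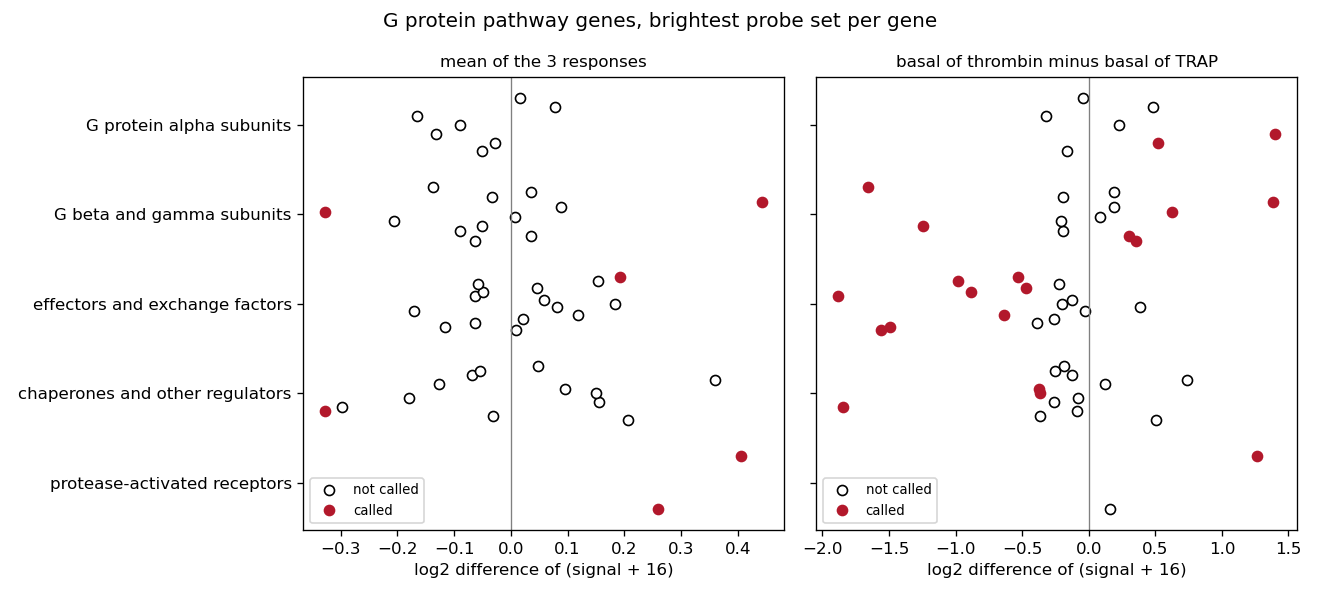
Log2 differences of G protein pathway genes at their brightest probe set, 1 point per gene, for the mean of the 3 responses (left) and for unstimulated cells of the thrombin minus the TRAP experiment (right), filled where the adjusted p of that contrast lay under 0.05. On the left no alpha subunit is filled, and on the right 2 of 7 alpha subunits are filled above 0 and 8 of 15 effectors below 0.

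Of the receptors, F2r, which encodes the thrombin receptor PAR1, had 3964.3 and 4194.8 after PTX and TRAP, against 2767.8 and 2747.8 in unstimulated cells. Both arrays lay above, by 0.56 ± 0.09 (SE, adjusted p = 0.00574, limma), and this was called in each of the 12 fits with 1 array omitted. In TRAP-treated cells it had 3251.7 and 3450.6, against 2917.3 and 3266.7, and in thrombin-treated cells 3833.3 and 3571, against 3606.3 and 3313.5, both with overlap and not called. For F2r the response to TRAP after PTX minus that to TRAP alone was 0.44 ± 0.13 (SE). This did not pass the test (adjusted p = 0.292, limma), so the responses with and without PTX are not shown to differ. They come from different experiments, each with its own unstimulated cells. F2rl1, which encodes PAR2, a receptor cut by trypsin, had 240.2 and 271.5 in thrombin-treated cells, against 193.8 and 135.7 in unstimulated cells, without overlap and not called (adjusted p = 0.137, limma). In the mean of the 3 responses F2r rose by 0.26 (adjusted p = 0.00621, limma). F2rl1 rose there by 0.41 (adjusted p = 0.0446), a call kept without replicate 1 of the unstimulated thrombin experiment, of the unstimulated PTX experiment or of TRAP, and lost without each other array.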

How the data were processed

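Total RNA of 12 rat samples was hybridised to 1-colour Affymetrix arrays. The deposited files hold intensity, linear and computed by the authors in GCOS 1.4 per the submitters' processing notes. The files show a mean near 200 on every array when 2% at either end are trimmed. The number of arrays limits the precision.

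Tests used log2(signal + 16), a scale on which changes of dim probe sets come out too small. They took probe sets whose mean on that scale exceeded the 40th percentile, without the 57 controls. All 6 groups, taken from the labels, were fitted together in limma 3.58.1 (R 4.3.3) by lmFit and trended eBayes (2-sided tests, Benjamini-Hochberg adjustment), with 6 residual and 7.5 prior degrees of freedom. Correlations of arrays were taken on the same scale.

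The members and lists were chosen with earlier results of these data known. The text names every member, the tested receptors, and the 3 genes most like each called member. It also names the pathway genes called in a response or between unstimulated cells of the thrombin and TRAP experiments. Saa3 and the single markers named were chosen after their values were seen. Upstream sequences are from RefSeq (GRCr8), and the array annotation names no build. Alternatives covered pseudocounts, filters, scalings, array weights, blocks, other controls and each array left out. Detection calls were not used. Some results on single genes are not reported here.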

Additional observations from a re-analysis of the deposited data

How the results depend on the processing

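The count of alpha subunit probe sets called stayed at 0 in the 3 responses, the mean response and both differences between responses under every alternative run except all 6 unstimulated arrays as the control. That control sets arrays of different experiments against each other, and it gave 4 called after thrombin, 1 after TRAP, 2 after PTX and TRAP, and 3 in thrombin minus TRAP. Under it the thrombin response turned from below to above 0 for Gnai1 (0.82, adjusted p = 0.000953, limma) and for the Gna12 probe set 1371798_at (0.22, adjusted p = 0.0458), as did thrombin minus TRAP for that probe set (0.32, adjusted p = 0.0187). The F test among unstimulated groups called 5 in the main fit. It called 6 with a pseudocount of 64 and with array weights, where the Gnas probe set 1387906_a_at joined. With a filter at the 60th percentile, where 3 of the 10 probe sets were tested, it called 1. Leaving out each array in turn gave 3 to 6 for the F test and 0 to 0 for all others. The lowest count, 3, was without replicate 2 of the unstimulated thrombin experiment.

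With the replicate number as a block, 0 were called in each response and difference and 6 in the F test, where the Gnas probe set 1387906_a_at joined (adjusted p = 0.0351, limma). Differences between replicates correlated between stimulated and unstimulated arrays with r = 0.134 (thrombin), 0.104 (TRAP) and 0.022 (TRAP after PTX), so the pairing rests on a shared number only. Of 1671 values of single probe sets under the alternatives, 1652 stayed on their side of the threshold. The sign changed in 88, of which 3 are the called reversals above and 85 were not called in either fit (11 of the 88 are under the control of all unstimulated arrays). Of the values that kept their sign, 14 newly passed the threshold and 2 no longer did. Where omission leaves 1 array in a group, its spread is taken from the other groups. A fit of the compared arrays alone was not run for the mean response, nor the block by sets of arrays and the control of all unstimulated arrays for the F test. Dim probe sets (Gnao1 and both dim Gnas probe sets) lie near the filter, so their changes are the least precise.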
